A study of Homo sapiens with 6 samples.

Results

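Homologous recombination and the Fanconi anaemia pathway repair broken and crosslinked DNA. The genes that carry out this work, together with the checkpoint kinases that signal the damage, were followed here in A549 cells. The set is a list of 36 gene symbols grouped by function, out of 62700 human genes in the deposited table, and all 36 were found there. A549 is a long-established epithelial cell line from a human lung adenocarcinoma. RNA was sequenced from 3 libraries of cells with a control guide RNA, labelled wild type (sgControl), and from 3 libraries of knockout derivatives made with a guide against H2AC19, which encodes an H2A histone of the replication-dependent class (sgH2AC19). All cells grew in the same medium with serum, and no further treatment is named. The labels do not say whether the derivatives were a clone or a pool, nor whether the 3 libraries of a group came from separate cultures, so the spread behind the p-values is that of the libraries and may be technical.

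In homologous recombination a broken end is trimmed back to single-stranded DNA. With the help of the BRCA proteins and their partners that strand then invades the sister chromatid and copies the missing sequence from it. In the Fanconi anaemia pathway a core complex attaches ubiquitin to the FANCD2-FANCI clamp at a crosslink, and the clamp brings in the nucleases and recombination factors that undo it. Both routes work mainly in S and G2 phase, when a sister copy exists, and many of their genes are transcribed with the cell cycle.

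The values are FPKM, fragment counts divided by gene length and by the fragment total of the library. Read totals, recovered because each value is a whole multiple of what 1 read is worth, ran from 35681162 to 45738439 per library. The targeted gene, H2AC19, was listed at 0 FPKM in all 6 libraries, as was its near-identical copy H2AC18, so the target does not check the labels. The sgControl and sgH2AC19 libraries separated on the leading principal component (53.7% of the variance), and sgH2AC19 replicate 3 stood apart from replicates 1 and 2 on the next component (−16.0 against 8.09 and 8.32, with 18.2% of the variance). All 7 epithelial markers were measured, with a summed level of 835 to 865 FPKM in sgControl and 965 to 1012 FPKM in sgH2AC19, 4 of them higher and 3 lower. All 8 endothelial markers were under 1 FPKM in every library. The 8 leukocyte markers summed to 2.64 to 3.04 FPKM in sgControl and 2.99 to 4.24 FPKM in sgH2AC19, with CD3E and MS4A1 at 0 in all 6 libraries. The 8 fibroblast markers summed to 4.47 to 5.05 FPKM and 6.65 to 7.24 FPKM, and 2 of them, COL1A1 and LUM, were called higher. The part of these markers in the results was not tested. These are bulk samples, in which a change in the share of cells at some stage and a change in RNA per cell cannot be told apart.

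A few of these repair genes were called modestly higher in sgH2AC19 and 1 was called lower, while most were not called in either direction. Of the 32 genes tested 6 rose, namely XRCC2, FANCI, BRCA1, FANCG, RAD54L and RAD51D, and 1 fell, NBN (adjusted p under 0.05 in a limma fit of log2(FPKM + 1)). The rises ran from 1.21-fold for RAD51D to 1.45-fold for XRCC2 as ratios of mean FPKM, and NBN was at 0.847 of its sgControl mean. Among all 12871 genes tested 12.0% rose and 11.0% fell, beside 18.8% of these 32 genes that rose. After FPKM were rescaled without the genes of the mitochondrial genome, 7 of the 32 rose and 0 fell, with PALB2 gained and NBN lost, beside 15.6% of all genes higher and 8.49% lower. The other 4 genes, RAD50, FANCB, FANCE and FANCM, lay mostly under 1 FPKM and were not tested on this scale.

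The median log2 fold change of the 32 genes was 0.076, beside −0.0051 for all genes tested, and 24 of the 32 lay above 0, beside 48.8% of all genes. In 11 of the 32 every sgH2AC19 library was above every sgControl library, beside 21.5% of all genes tested, and in 2 every sgH2AC19 library was below, beside 21.7%. The summed level of all 36 genes was 138, 142 and 150 FPKM in sgControl replicates 1 to 3 and 152, 162 and 166 FPKM in sgH2AC19 replicates 1 to 3. The sums thus did not overlap between the groups, but the nearest libraries differed by less than the spread within either group. Of the 36 genes 19 had their highest value in sgH2AC19 replicate 3, the library that stood apart, and 16 had their lowest in sgControl replicate 1. Without sgH2AC19 replicate 3, 5 of the 32 genes rose and 0 fell, beside 14.1% and 13.0% of all genes tested in that fit. Without sgControl replicate 1, 1 rose and 0 fell (7.63% and 5.51% of all genes), without sgControl replicate 2, 2 rose and 0 fell (7.15% and 4.82%), and without sgControl replicate 3, 3 rose and 0 fell (7.71% and 5.21%). The counts were 4 and 0 without sgH2AC19 replicate 1 (8.54% and 8.36% of all genes) and 2 and 1 without sgH2AC19 replicate 2 (8.10% and 7.43%). With every gene above 0 FPKM in the test, 2 of the set rose and 0 fell, beside 2.44% and 1.77% of all genes. That fit took in 36938 genes, of which 12871 reached 1 FPKM in 3 or more libraries. Most of its genes were thus low, unlike this set.

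**Figure D1:**
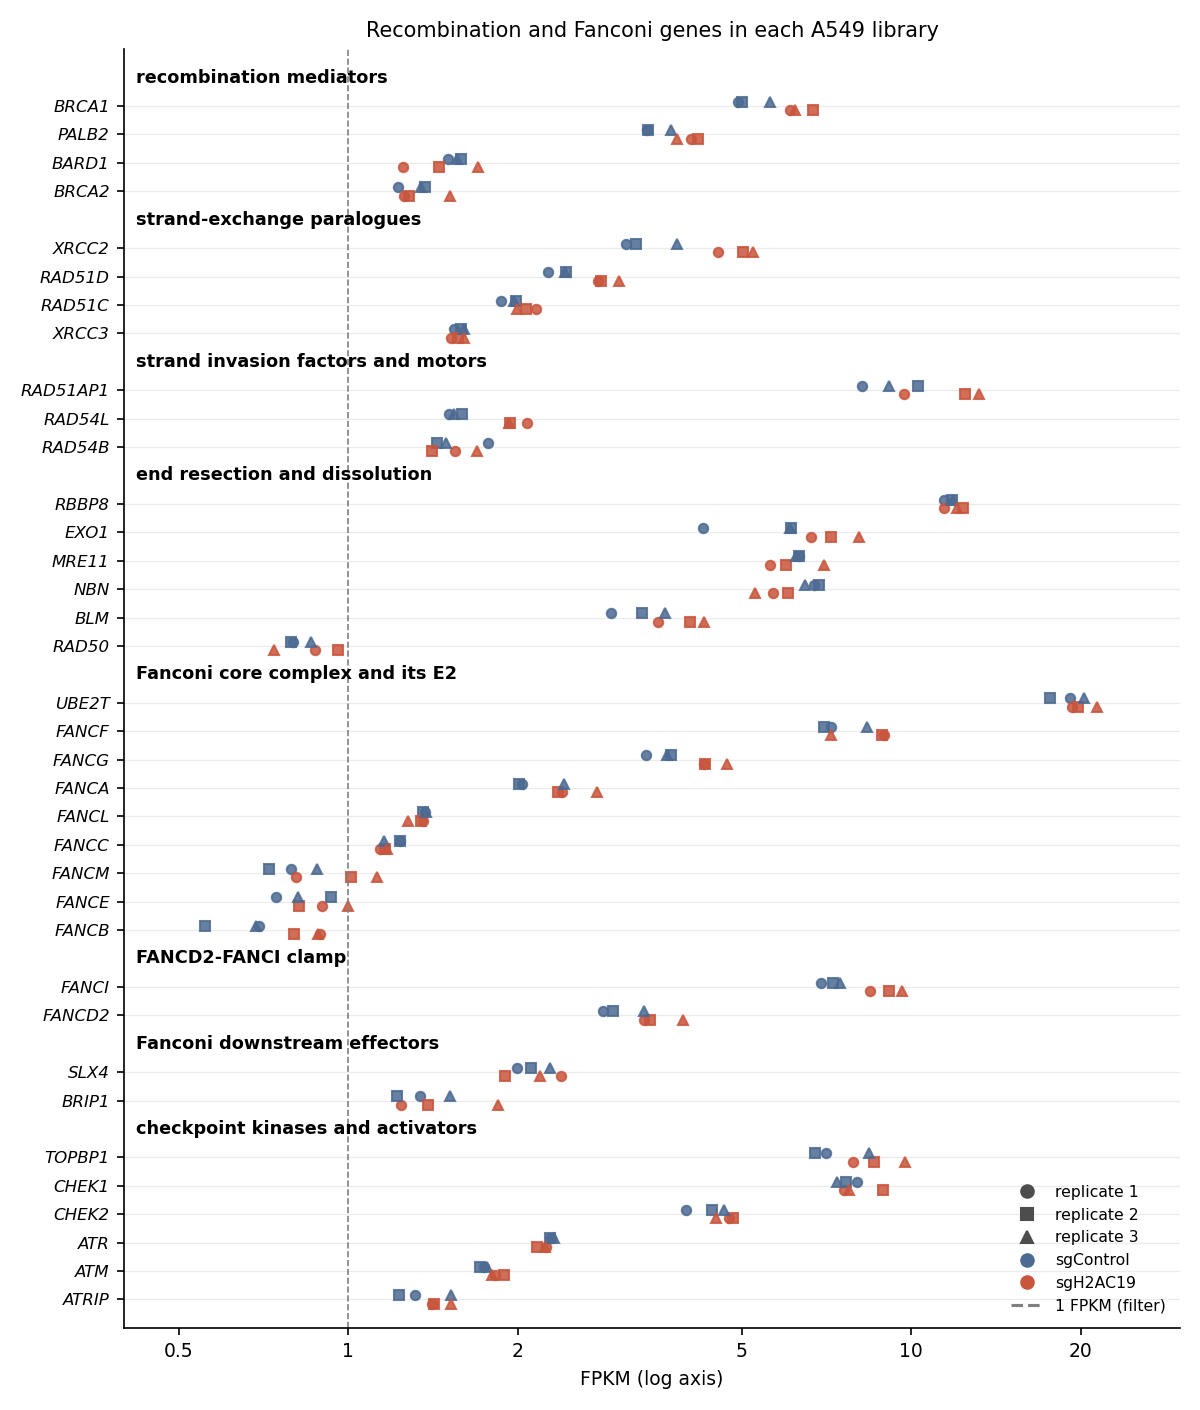
FPKM of the 36 genes in each of the 6 libraries on a log axis, grouped by role, with the guide shown by colour and the replicate by shape. Most genes lie between 1 and 10 FPKM, UBE2T is highest at about 20 FPKM, and the red sgH2AC19 points of XRCC2, FANCI and FANCG all lie to the right of the blue sgControl points.

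Start-site sequences were matched for 33 of the 36 genes (all but NBN, RAD54B and FANCI), as 44 windows of 300 bases running from 250 bases before to 50 bases after an annotated start (RefSeq, GRCh38.p14). They were searched on both strands for 4 words of the kind bound by E2F factors, regulators of S-phase genes (TTTCCCGC, TTTCGCGC, TTTGCCGC and TTTGGCGC). The search also took in CCAAT, the word bound by NF-Y, and the CHR words TTTGAA and TTCGAA, found at genes of late cell cycle. An E2F word was present in 6 of the 33 genes (18.2%), EXO1, FANCA, FANCC, FANCD2, TOPBP1 and XRCC2, beside 3.31% of 35116 promoters and 6.82% of the 9052 tested genes with a window. CCAAT was present in 16 of 33 (48.5%), beside 34.6% of promoters and 43.6% of those tested genes. A CHR word was present in 4 of 33 (12.1%), beside 16.4% of promoters and 15.1% of those tested genes. Of the 6 genes with an E2F word only XRCC2 was among those that rose. Among all 617 tested genes with an E2F word 13.6% rose and 8.27% fell, with a median log2 fold change of 0.02. The shares were 13.9% and 10.6% of the 3943 tested genes with CCAAT, and 16.6% and 9.26% of the 1371 with a CHR word. Among all 12871 genes tested, with or without a window, 12.0% rose and 11.0% fell. No difference between these shares was tested.

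The 5 windows below show this range, with the E2F words and CCAAT in capitals and each sequence given 5′ to 3′ on the strand of its gene. A word on the opposite strand therefore appears as its reverse complement. XRCC2 (chr7:152676092-152676391, minus strand) had the largest called rise and holds 1 E2F word, read on the opposite strand, from position 22 after the start. EXO1 (chr1:241847954-241848253, plus strand) holds 1 from position 5. FANCC (chr9:95317660-95317959, minus strand) holds 2, at −172 and −46, and was not called. RAD54L (chr1:46247438-46247737, plus strand) rose and holds CCAAT at −65 and −2 with no E2F word, and FANCG (chr9:35079893-35080192, minus strand) rose and holds neither. A match of letters is a description and not a bound site.
XRCC2: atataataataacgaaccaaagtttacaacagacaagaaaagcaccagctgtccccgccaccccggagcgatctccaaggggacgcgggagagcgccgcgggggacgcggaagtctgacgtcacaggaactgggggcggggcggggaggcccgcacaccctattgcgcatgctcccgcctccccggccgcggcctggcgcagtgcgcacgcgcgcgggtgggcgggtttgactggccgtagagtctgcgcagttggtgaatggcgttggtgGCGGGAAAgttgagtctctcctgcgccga
EXO1: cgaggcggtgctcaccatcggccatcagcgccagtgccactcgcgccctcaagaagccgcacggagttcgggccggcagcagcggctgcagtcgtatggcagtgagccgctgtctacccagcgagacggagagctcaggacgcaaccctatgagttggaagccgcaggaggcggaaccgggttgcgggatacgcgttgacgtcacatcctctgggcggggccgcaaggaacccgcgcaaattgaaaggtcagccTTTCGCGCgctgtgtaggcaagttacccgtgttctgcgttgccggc
FANCC: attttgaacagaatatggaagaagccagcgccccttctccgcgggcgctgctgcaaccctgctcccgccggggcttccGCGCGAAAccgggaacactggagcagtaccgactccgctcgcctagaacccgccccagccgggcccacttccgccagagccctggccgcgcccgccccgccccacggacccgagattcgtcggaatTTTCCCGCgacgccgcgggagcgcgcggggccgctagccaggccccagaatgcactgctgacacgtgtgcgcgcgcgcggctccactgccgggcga
RAD54L: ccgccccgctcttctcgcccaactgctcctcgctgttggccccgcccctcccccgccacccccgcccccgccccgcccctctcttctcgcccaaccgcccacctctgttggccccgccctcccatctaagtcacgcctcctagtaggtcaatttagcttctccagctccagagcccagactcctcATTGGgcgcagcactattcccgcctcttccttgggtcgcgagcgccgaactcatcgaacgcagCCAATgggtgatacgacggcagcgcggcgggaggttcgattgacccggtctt
FANCG: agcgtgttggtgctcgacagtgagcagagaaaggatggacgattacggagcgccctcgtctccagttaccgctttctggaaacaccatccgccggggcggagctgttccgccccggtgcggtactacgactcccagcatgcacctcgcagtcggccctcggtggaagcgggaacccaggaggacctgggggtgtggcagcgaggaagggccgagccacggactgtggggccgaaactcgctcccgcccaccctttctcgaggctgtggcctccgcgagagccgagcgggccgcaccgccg

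Among the mediators, which prepare the trimmed end for strand invasion, BRCA1 rose and BARD1, PALB2 and BRCA2 were not called. BRCA1 (ENSG00000012048, chr17:43044295-43170245, minus strand) encodes a ubiquitin ligase that promotes end resection. It was at 4.91, 5.01 and 5.61 FPKM in sgControl and at 6.09, 6.70 and 6.21 FPKM in sgH2AC19. All 3 sgH2AC19 libraries were above all 3 sgControl libraries. The mean went from 5.18 ± 0.376 to 6.33 ± 0.322 FPKM (SD, n = 3 each), which is a log2 fold change of 0.25 (SE 0.062, 95% interval 0.10 to 0.39, adjusted p = 0.0287 by limma). Dropping sgControl replicate 1 ended the call (adjusted p = 0.0988), as did dropping sgControl replicate 2 (0.0970) and dropping sgH2AC19 replicate 2 (0.0833).

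PALB2, the bridge between BRCA1 and BRCA2, was at 3.39, 3.41 and 3.75 FPKM in sgControl and at 4.06, 4.18 and 3.84 FPKM in sgH2AC19. The groups did not overlap, but the log2 fold change of 0.15 (SE 0.057) missed the threshold (adjusted p = 0.0941 by limma). BRCA2, which acts on the single-stranded DNA of the trimmed end, was at 1.22, 1.37 and 1.34 FPKM and at 1.26, 1.28 and 1.52 FPKM, with overlapping groups and a log2 fold change of 0.02 (95% interval −0.16 to 0.20). BARD1, the obligate partner of BRCA1, was at 1.5, 1.59 and 1.56 FPKM in sgControl and at 1.25, 1.45 and 1.70 FPKM in sgH2AC19. Its sgH2AC19 libraries spread to both sides of sgControl, and its adjusted p was 0.703. Partner genes of 1 complex were therefore not called together, although the difference between BRCA1 and BARD1 was not tested.

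The 4 paralogues RAD51C, RAD51D, XRCC2 and XRCC3 form small complexes that help strand exchange, and 2 of the 4 rose. XRCC2 (ENSG00000196584, chr7:152644779-152676165, minus strand), whose promoter is printed above, was at 3.11, 3.25 and 3.84 FPKM in sgControl and at 4.54, 5.02 and 5.23 FPKM in sgH2AC19. Its lowest sgH2AC19 library lay above its highest sgControl library. The mean went from 3.40 ± 0.389 to 4.93 ± 0.354 FPKM (SD, n = 3 each), with a log2 fold change of 0.43 (SE 0.079, 95% interval 0.25 to 0.62, adjusted p = 0.0099 by limma). It was called under all 15 alternative analyses and with any single library left out (adjusted p 0.0128 to 0.0431), the only gene of the 36 for which this held. The value rests on 727 to 1339 recovered reads per library.

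RAD51D (ENSG00000185379, chr17:35092208-35121522, minus strand), which joins XRCC2 to RAD51C in the same complex, was at 2.26, 2.43 and 2.43 FPKM in sgControl and at 2.78, 2.81 and 3.03 FPKM in sgH2AC19. The groups did not overlap, and the log2 fold change was 0.20 (SE 0.058, adjusted p = 0.0473 by limma). This call was the closest to the threshold, and it was lost when any single library was left out (adjusted p 0.0774 to 0.149). RAD51C was at 1.87, 1.99 and 1.97 FPKM and at 2.15, 2.07 and 1.99 FPKM, so its groups only just failed to overlap, with an adjusted p of 0.483. XRCC3, the partner of RAD51C in a second complex, had a mean of 1.58 ± 0.0321 FPKM in sgControl and 1.57 ± 0.0415 FPKM in sgH2AC19. The exons of KLC1 on the opposite strand cover 76.7% of the exon bases of XRCC3, and no source states that strand was used in counting, so the XRCC3 value is uncertain.

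The strand invasion factors and motors gave 1 call among 3 genes. RAD54L (ENSG00000085999, chr1:46247688-46278473, plus strand), a motor that drives strand exchange, was at 1.51, 1.59 and 1.54 FPKM in sgControl and at 2.07, 1.94 and 1.93 FPKM in sgH2AC19. The groups lay clearly apart, and the mean went from 1.55 ± 0.0436 to 1.98 ± 0.0813 FPKM (SD, n = 3 each), with a log2 fold change of 0.23 (SE 0.062, adjusted p = 0.0372 by limma). The call held without sgH2AC19 replicate 3 and was lost without any of the other 5 libraries (adjusted p 0.0444 to 0.112 over the 6). Exons of LRRC41 on the opposite strand cover 25.1% of its exon bases, and LRRC41 itself had a log2 fold change of −0.13 (adjusted p = 0.0993).

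RAD51AP1, which stimulates strand invasion, was at 8.18, 10.3 and 9.15 FPKM in sgControl and at 9.70, 12.5 and 13.2 FPKM in sgH2AC19. Its replicate 1 library was the lowest of each group, and the groups overlapped. The log2 fold change of 0.32 (SE 0.12) was larger than that of any called gene except XRCC2 but missed the threshold (adjusted p = 0.0938 by limma). Without sgH2AC19 replicate 1 it was 0.44 with an adjusted p of 0.0260. RAD54B, a relative of RAD54L, had means of 1.57 ± 0.181 and 1.55 ± 0.143 FPKM, and 59.1% of its exon bases are shared with FSBP on the same strand.

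Of the 5 tested genes for trimming the broken end and for dissolving the joined strands, 0 rose and 1 fell by limma. At an unadjusted p under 0.05 EXO1 and BLM were higher and NBN lower. At that level 10 of the 32 genes of the set were higher and 1 lower, beside 18.6% and 18.9% of all genes tested. NBN (ENSG00000104320), which with MRE11 and RAD50 forms the complex that senses a break and starts the trimming, was at 6.72, 6.86 and 6.49 FPKM in sgControl and at 5.68, 6.05 and 5.27 FPKM in sgH2AC19. All 3 sgH2AC19 libraries were below all 3 sgControl libraries. The mean went from 6.69 ± 0.187 to 5.67 ± 0.388 FPKM (SD, n = 3 each), with a log2 fold change of −0.21 (SE 0.057, 95% interval −0.34 to −0.07, adjusted p = 0.0394 by limma). The call held without sgH2AC19 replicate 2, was lost without any of the other 5 libraries (adjusted p 0.0383 to 0.124 over the 6), and was lost after rescaling without mitochondrial genes (log2 fold change −0.17, adjusted p = 0.0611).

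MRE11, the nuclease of that complex, was at 6.31, 6.33 and 6.25 FPKM in sgControl and at 5.62, 6.00 and 7.0 FPKM in sgH2AC19. The sgControl libraries were nearly equal, while the sgH2AC19 libraries spread to both sides of them, and the adjusted p was 0.858. RAD50, the structural subunit, was at 0.799, 0.790 and 0.859 FPKM and at 0.871, 0.960 and 0.738 FPKM. It was not tested on the FPKM scale, and 79.7% of its exon bases are shared with an overlapping same-strand gene listed at 0, so its level is uncertain. RBBP8 (CtIP), which activates the trimming, had means of 11.7 ± 0.235 and 11.9 ± 0.461 FPKM.

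EXO1, the exonuclease that extends the trimming, was at 4.27, 6.13 and 6.10 FPKM in sgControl and at 6.64, 7.21 and 8.08 FPKM in sgH2AC19. The groups did not overlap, but sgControl replicate 1 lay far below the other two. The log2 fold change was 0.37 (SE 0.13, adjusted p = 0.0775 by limma), and without sgControl replicate 1 it was 0.22 with an adjusted p of 0.132. BLM, the helicase that dissolves joined molecules, was at 2.92, 3.33 and 3.65 FPKM and at 3.54, 4.04 and 4.29 FPKM, with overlapping groups and an adjusted p of 0.122.

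**Figure D2:**
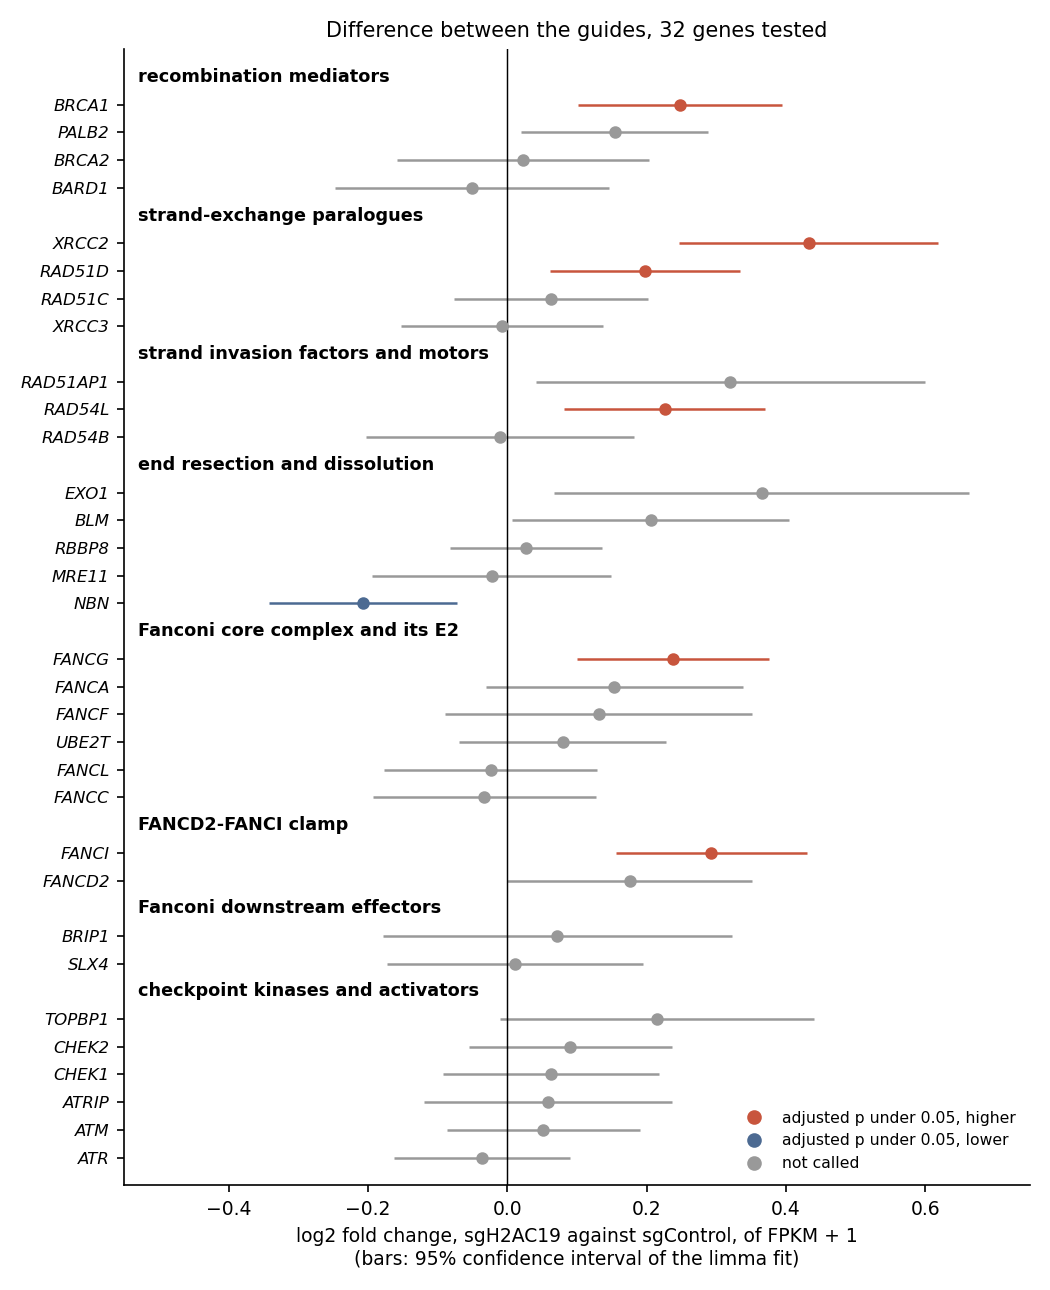
Log2 fold change (sgH2AC19 against sgControl) of FPKM + 1 for the 32 tested genes by role, as points with 95% confidence intervals of the limma fit. The 6 called rises lie between 0.20 and 0.43, NBN is the only call below 0, and no checkpoint gene was called.

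In the Fanconi core complex, the multi-subunit ubiquitin ligase, and its conjugating enzyme UBE2T, 6 of 9 genes were tested and 1 rose. FANCG (ENSG00000221829, chr9:35073835-35080016, minus strand), a scaffold subunit, was at 3.38, 3.74 and 3.69 FPKM in sgControl and at 4.28, 4.29 and 4.70 FPKM in sgH2AC19. The groups did not overlap. The mean went from 3.60 ± 0.194 to 4.43 ± 0.239 FPKM (SD, n = 3 each), with a log2 fold change of 0.24 (SE 0.059, adjusted p = 0.0274 by limma). The call held without sgH2AC19 replicate 3 and was lost without any of the other 5 libraries (adjusted p 0.0458 to 0.0957 over the 6).

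FANCA, which binds FANCG in the complex, was at 2.04, 2.01 and 2.41 FPKM in sgControl and at 2.40, 2.36 and 2.77 FPKM in sgH2AC19, with overlapping groups and an adjusted p of 0.198. In both groups replicate 3 was the highest, and exons of ZNF276 on the opposite strand cover 23.6% of its exon bases. FANCF, an adaptor subunit, was at 7.20, 7.0 and 8.34 FPKM and at 8.94, 8.87 and 7.20 FPKM. Here sgH2AC19 replicate 3 fell among the sgControl libraries while the other two lay above them, and the adjusted p was 0.350. FANCC, whose promoter holds the 2 E2F words printed above, had means of 1.21 ± 0.0464 and 1.16 ± 0.0178 FPKM and was not called.

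FANCL, the subunit with the ligase activity, had means of 1.37 ± 0.00853 and 1.33 ± 0.0447 FPKM (SD, n = 3 each) and was not called. In GENCODE 29, exons of VRK2 on the opposite strand cover 18.7% of the 2412 exon bases of FANCL. The length behind the FANCL FPKM was 37977 bases, so this share need not hold for the bases counted. VRK2 itself had higher means, 9.17 ± 0.718 FPKM in sgControl and 9.86 ± 0.884 FPKM in sgH2AC19, so the FANCL value is uncertain. UBE2T, the conjugating enzyme of FANCL, had the highest level of the 36 genes, at 19.2, 17.7 and 20.3 FPKM in sgControl and at 19.3, 19.8 and 21.3 FPKM in sgH2AC19. The UBE2T groups overlapped, and the log2 fold change of 0.08 had a 95% interval of −0.07 to 0.23. FANCM, the translocase that anchors the complex on DNA, was at 0.790, 0.722 and 0.880 FPKM and at 0.809, 1.01 and 1.13 FPKM. FANCE, which links the core complex to FANCD2, was at 0.745, 0.933 and 0.814 FPKM and at 0.900, 0.817 and 0.999 FPKM. Both groups overlapped for these genes, and neither was tested on the FPKM scale.

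FANCB, a further core subunit, was at 0.693, 0.558 and 0.686 FPKM in sgControl and at 0.890, 0.801 and 0.883 FPKM in sgH2AC19. All 3 sgH2AC19 libraries were higher, but the gene was under the filter of 1 FPKM in at least 3 libraries. On the recovered reads, of which it had 293 to 541 per library, the log2 fold change was 0.42 (SE 0.12, limma-voom adjusted p = 0.0180). In that analysis, chosen after seeing the data, genes with at least 50 reads in at least 3 libraries were tested, which took in all 36 genes. Of these 8 rose, the 6 named above with EXO1 and FANCB, and NBN fell, beside 14.1% and 13.0% of the 14422 genes tested in that way. FANCM, FANCE and RAD50 were not called there (adjusted p 0.124, 0.595 and 0.757).

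The FANCD2-FANCI clamp is the substrate of the core complex and closes around DNA when ubiquitin is attached. FANCI (ENSG00000140525, chr15:89243949-89317261, plus strand) was at 6.92, 7.25 and 7.48 FPKM in sgControl and at 8.47, 9.11 and 9.64 FPKM in sgH2AC19. The groups did not overlap, and in each of them replicate 1 was the lowest. The mean went from 7.22 ± 0.284 to 9.07 ± 0.587 FPKM (SD, n = 3 each), with a log2 fold change of 0.29 (SE 0.058, 95% interval 0.16 to 0.43, adjusted p = 0.0133 by limma). It had 4479 to 6913 recovered reads per library, the most of the 36 genes when the 6 libraries are summed, and only the removal of sgControl replicate 1 ended its call (adjusted p = 0.0539).

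FANCD2 was at 2.83, 2.95 and 3.35 FPKM in sgControl and at 3.35, 3.43 and 3.93 FPKM in sgH2AC19. The groups met without overlapping at 3.35 FPKM, and the log2 fold change was 0.18 (SE 0.075, adjusted p = 0.133 by limma). Both partners of the clamp thus lay above sgControl, FANCI past the threshold and FANCD2 not, and the difference between them was not tested. Downstream of the clamp, the helicase BRIP1 had means of 1.36 ± 0.150 and 1.49 ± 0.317 FPKM, with overlapping groups. The nuclease scaffold SLX4 had means of 2.13 ± 0.144 and 2.16 ± 0.248 FPKM, again with overlapping groups, and neither was called.

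None of the 6 checkpoint kinases and activators passed the threshold in the limma fit of the 6 libraries without a covariate. None had an unadjusted p under 0.05 there, beside 18.6% of all genes tested higher and 18.9% lower at that level. ATM, the kinase that answers double-strand breaks, was at 1.74, 1.71 and 1.76 FPKM in sgControl and at 1.83, 1.89 and 1.80 FPKM in sgH2AC19. ATR, the kinase that answers stalled forks, was at 2.29, 2.28 and 2.32 FPKM and at 2.25, 2.17 and 2.23 FPKM. The groups of both genes did not overlap, ATM being higher and ATR lower, but the log2 fold changes were only 0.05 and −0.04 (adjusted p 0.563 and 0.666). ATRIP, the partner of ATR, had means of 1.36 ± 0.149 and 1.45 ± 0.0626 FPKM, and 27.9% of its exon bases are shared with TREX1 on the same strand.

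TOPBP1, the activator of ATR whose promoter also holds an E2F word, was at 7.07, 6.75 and 8.40 FPKM in sgControl and at 7.87, 8.6 and 9.77 FPKM in sgH2AC19. Replicate 3 was the highest library of each group, the groups overlapped, and the adjusted p was 0.150. The effector kinase CHEK1 was at 8.0, 7.65 and 7.39 FPKM and at 7.61, 8.89 and 7.74 FPKM. CHEK2, the effector of ATM, was at 3.98, 4.43 and 4.65 FPKM and at 4.74, 4.83 and 4.5 FPKM. For CHEK1 and CHEK2 the groups overlapped, with 95% intervals of the log2 fold change from −0.09 to 0.22 and from −0.06 to 0.24.

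**Figure D3:**
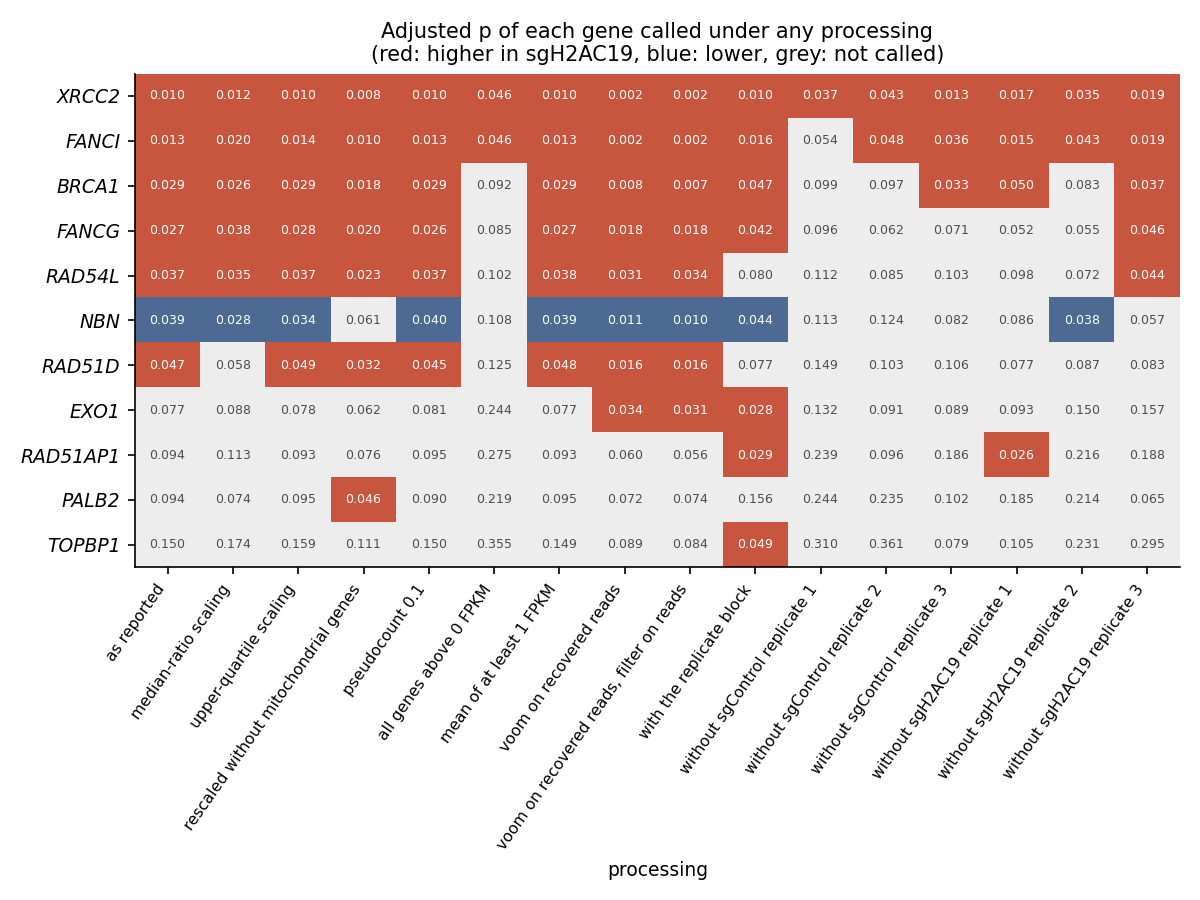
Limma adjusted p of each gene, among the 32 tested on the FPKM scale, called under at least 1 processing. Cells have the gene on the vertical axis and the processing on the horizontal axis. They are coloured red where called higher, blue where called lower and grey where not called. FANCB, called only on recovered reads, is not among the 32 and is not shown. XRCC2 is called in every column, FANCI in all but 1, and RAD51D is not called in any column that leaves out a library.

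Levels of different genes can be compared only as far as the lengths behind the FPKM hold. The length that turned FPKM into whole reads equalled the summed exon length in GENCODE 29 for 3 of the 36 genes and was more than 2 times that length for 8. For FANCL it was 37977 bases against 2412, or 15.7 times, and the gene ranked 30 of 36 by FPKM but 8 by reads, with 1828 to 2360 reads per library. The ratio was 3.70 for FANCB, 3.15 for NBN, 2.70 for RAD51C and 2.30 for FANCI. UBE2T ranked 1 by FPKM and 12 by reads. The shares of exon bases covered by another gene rest on GENCODE 29 exons and need not hold where the length differed. Recovered reads rest on the smallest length that gave whole numbers, and a multiple of that length would multiply them. The length is the same in every library, so it cancels in a ratio of mean FPKM but enters the level, the place around the 1 FPKM filter and, through the added 1, the log2 fold change of log2(FPKM + 1).

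**Figure D4:**
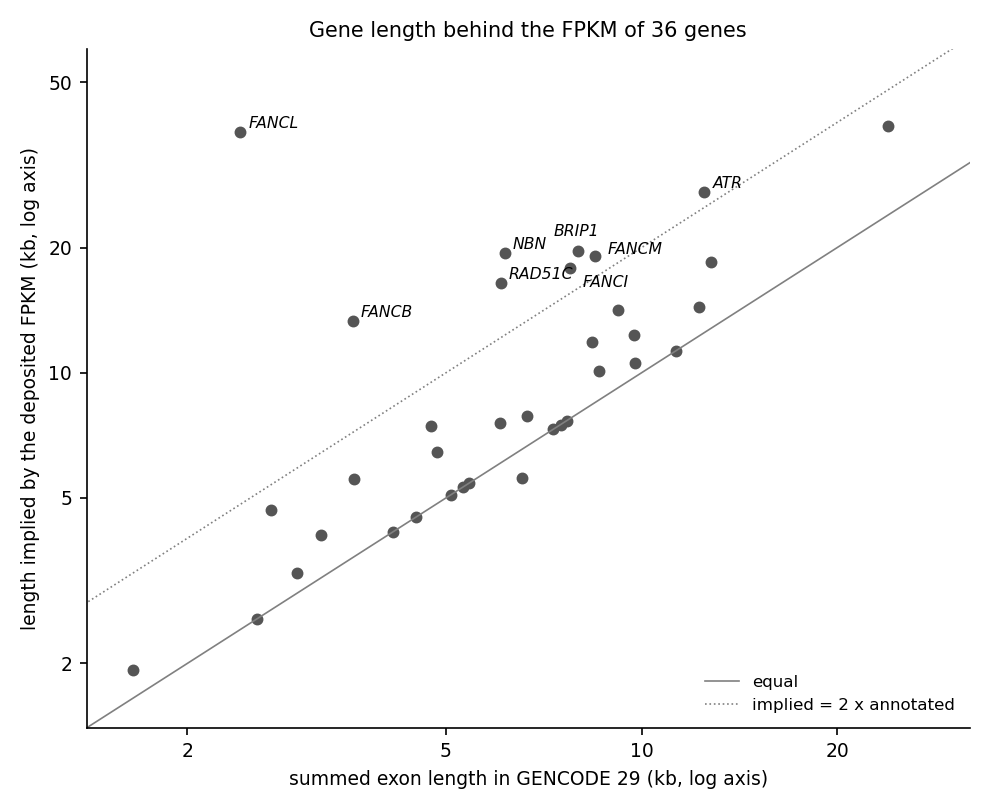
Gene length implied by the deposited FPKM (vertical, kb) against the summed exon length in GENCODE 29 (horizontal, kb) for the 36 genes, both on log axes. The 8 labelled genes lie above the dotted line of 2 times the annotated length, FANCL farthest at 15.7 times.

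Beyond these 36 genes, other recombination and crosslink repair genes gave 4 higher and 1 lower of 53 tested, with a median log2 fold change of 0.05. These shares of 7.55% and 1.89% were both under the 12.0% and 11.0% of all genes tested. FAAP24, a partner of FANCM, rose from 4.00 ± 0.570 to 5.49 ± 0.461 FPKM (adjusted p = 0.0278). BRCC3 rose from 14.8 ± 0.352 to 17.6 ± 0.156 FPKM (adjusted p = 0.00868) and BABAM2 from 14.3 ± 0.525 to 16.6 ± 0.211 FPKM (adjusted p = 0.02), both subunits of the BRCA1-A deubiquitinase complex. A further subunit, UIMC1, named after its values were seen, rose from 8.44 ± 0.333 to 10.2 ± 0.788 FPKM (adjusted p = 0.0309). The subunits ABRAXAS1 and BABAM1 were not called (adjusted p 0.880 and 0.786 by limma). ABRAXAS1 had means of 1.83 ± 0.0261 FPKM in sgControl and 1.90 ± 0.333 FPKM in sgH2AC19, and BABAM1 of 2.95 ± 0.204 and 3.03 ± 0.176 FPKM. ERCC1, which with ERCC4 forms the nuclease that cuts at crosslinks, fell from 11.6 ± 0.308 FPKM in sgControl to 8.91 ± 0.939 FPKM in sgH2AC19 (adjusted p = 0.0147, log2 fold change −0.35). Genes of DNA end joining, the competing repair route, gave 1 higher and 0 lower of 26 tested by limma, with a median of −0.02. The share called higher was 3.85%, beside 12.0% of all genes. At an unadjusted p under 0.05, 4 were higher and 4 lower, beside 18.6% and 18.9% of all genes tested. The 1 that rose was PRKDC, the DNA-dependent protein kinase, from 15.7 ± 0.528 to 17.5 ± 0.231 FPKM (adjusted p = 0.0437).

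The checkpoint signalling, replication, and E2F and DREAM lists each had a share called higher above the 12.0% of all genes tested. Their shares called lower were each under the 11.0% of all genes, and no list was tested against all genes. Checkpoint and break signalling genes outside the set gave 6 higher and 1 lower of 30, with a median of 0.09. Among them TLK2, a chromatin assembly kinase, rose from 2.13 ± 0.0162 to 3.54 ± 0.145 FPKM (adjusted p = 0.00131), and ETAA1, a second activator of ATR, from 3.49 ± 0.135 to 5.17 ± 0.5 FPKM (adjusted p = 0.00491). TTI1, an assembly factor of the checkpoint kinases, rose from 9.09 ± 0.281 to 11.6 ± 0.638 FPKM (adjusted p = 0.00747) and TIMELESS, a fork protection factor, from 12.0 ± 0.330 to 14.8 ± 0.797 FPKM (adjusted p = 0.00949). The 1 lower gene was HUS1, part of the checkpoint clamp. DNA replication and licensing genes gave 15 higher and 1 lower of 50, with a median of 0.17, among them the licensing inhibitor GMNN from 8.65 ± 0.458 to 11.7 ± 0.141 FPKM and the licensing factor CDC6 from 12.8 ± 0.364 to 16.5 ± 0.583 FPKM (adjusted p 0.00252 and 0.00358). ORC6, an origin recognition subunit, rose from 5.57 ± 0.225 to 7.53 ± 0.342 FPKM and the nucleotide enzyme RRM2 from 10.4 ± 0.481 to 13.1 ± 0.493 FPKM (adjusted p 0.00375 and 0.00712). The 1 lower gene was POLE4, a small subunit of DNA polymerase epsilon. E2F and DREAM regulators, which switch the S-phase genes on and off, gave 7 higher and 2 lower of 25, with a median of 0.09. E2F1 rose from 5.77 ± 0.449 to 7.68 ± 0.573 FPKM and its partner TFDP1 from 17.6 ± 1.88 to 23.9 ± 0.452 FPKM (adjusted p 0.0129 and 0.00866). MYBL2, an activator of late cell-cycle genes, rose from 20 ± 0.298 to 31.6 ± 0.957 FPKM (adjusted p = 0.000336). The 2 lower genes were CDKN1A, the inhibitor of cyclin-dependent kinases known as p21, from 72.2 ± 5.19 to 45.5 ± 2.38 FPKM (adjusted p = 0.0012), and E2F4, the repressor partner in the DREAM complex. The 36 repair genes, with 6 of 32 higher, had a median of 0.076 between those of the end-joining and the replication genes, and no difference between lists was tested.

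**Figure D5:**
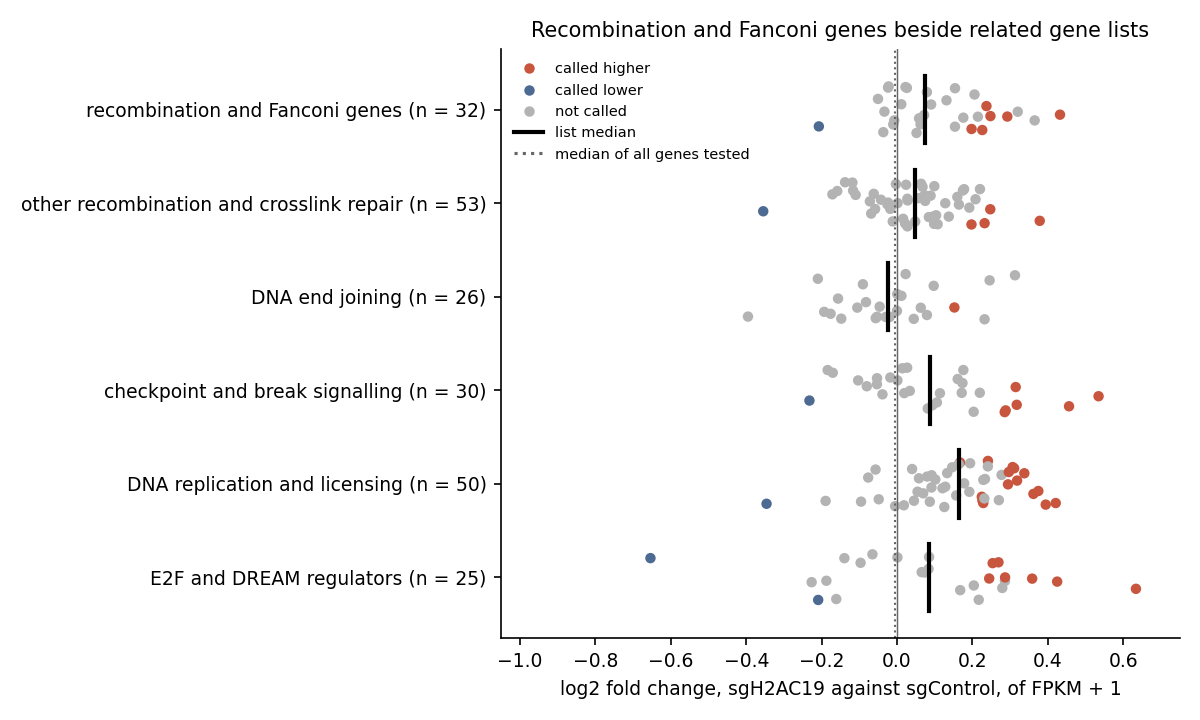
Log2 fold change (sgH2AC19 against sgControl) of FPKM + 1 for each tested gene of the recombination and Fanconi set and of the 5 related lists, with called genes in colour and the median of each list as a black bar. The median bar lies at 0.17 for DNA replication and licensing and at −0.02 for DNA end joining, beside the dotted line at −0.0051 for all genes tested.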

How the data were processed

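RNA-seq libraries from A549 cells were compared, 3 sgH2AC19 against 3 sgControl. A single table holds FPKM computed by the authors and deposited with 1 column per library, per the file headers, without pooling. Which aligner, counter and annotation made them is not given in the sources used here. The submitters' processing notes name GRCm38 and mm10, both of the mouse, but all 62700 IDs matched human Ensembl genes and 0 had the mouse prefix. The sgNC columns were read as sgControl and the sgH2AC columns as sgH2AC19, with 0 value columns unused. Gene coordinates and exons are from GENCODE 29 (GRCh38).

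Depth was recovered from the table: 12870 of 12871 genes tested gave whole reads (tolerance 0.001 reads) in every library, 3759 of them with their GENCODE 29 length and the rest with the smallest length that did so. Totals differed by a factor of 1.28. Mitochondrial genes held 29.6% to 32.5% of the FPKM. Genes that reached 1 FPKM in 3 or more libraries were fitted on log2(FPKM + 1) with limma 3.58.1 (R 4.3.3, mean-variance trend), with Benjamini-Hochberg adjustment over all of them and a threshold of 0.05. The pseudocount makes log2 fold changes of low genes too small, whereas folds in the text are ratios of mean FPKM. On simulated data for this comparison (12871 genes) the fit recovered 17 of 67 genes changed by 0.25 on the log2 scale. It recovered 51 of 61 changed by 0.5 and 71 of 72 changed by 1, with 8 false calls. Fewer genes were changed in the simulation than were called in the data, and only genes well above the 1 FPKM filter.

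All 36 genes of the set are named whatever their values, and from each related list at most 4 called genes with the smallest adjusted p. UIMC1, ABRAXAS1, BABAM1, HUS1, POLE4 and E2F4 fall outside that rule and were named after their values were seen. The members, the related lists and the markers were chosen with earlier results of these data known. In the related lists 1 symbol, FIRRM, was not matched, and the values of 1 other gene are not reported here. Promoter windows matched 33 of the 36 genes, and in 39 of 44 windows the last 30 bases lie in a GENCODE 29 transcript of the gene. The alternatives were 3 other scalings, a pseudocount of 0.1, 2 other filters, voom on recovered reads, a replicate block and leaving out each library, and voom with a read filter was chosen after seeing the data. Tables and plots were made in Python 3.11.15 with matplotlib 3.10.9, scipy 1.17.1, pandas 2.3.3 and numpy 2.4.6.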

Additional observations from a re-analysis of the deposited data

How the results depend on the processing

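Over the 32 genes tested and 15 alternatives, 423 values kept their direction and their side of the threshold, 34 lost a call, 7 gained one and 16 changed sign. With all genes above 0 FPKM tested, 2 of the recombination and Fanconi genes rose and 0 fell, beside 2.44% and 1.77% of all genes. Leaving out each library in turn gave 1 to 5 higher and 0 to 1 lower, with a median log2 fold change of 0.067 to 0.12. Rescaling without mitochondrial genes moved the median of all genes to 0.03 and that of the set to 0.11, with 0 called lower, and voom with a read filter also gave 0.11. The sign changes were all of genes not called: after rescaling without mitochondrial genes XRCC3 stood at 0.019, RAD54B at 0.016, MRE11 at 0.015 and FANCL at 0.00088. Over the libraries left out in turn BARD1 ran from −0.12 to 0.013, BRCA2 from −0.027 to 0.051, XRCC3 from −0.019 to 0.0047, RAD54B from −0.050 to 0.047, MRE11 from −0.10 to 0.037, BRIP1 from −0.028 to 0.14, SLX4 from −0.041 to 0.073 and CHEK1 from −0.00056 to 0.10. The causes of these changes were not tested. Fits with a library left out rest on fewer libraries, and the fit of all genes above 0 FPKM adjusts for more genes. Most genes in that last fit lay under the filter of 1 FPKM in 3 or more libraries, unlike the set.

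Among the related lists, rescaling without mitochondrial genes gave 7 other recombination genes, 2 end-joining genes and 23 replication genes called higher. With all genes above 0 FPKM tested, 2 other recombination, 0 end-joining, 6 replication and 3 E2F and DREAM genes were higher, and 0 other recombination, 0 checkpoint signalling and 1 E2F and DREAM genes were lower. Voom gave 3 end-joining genes higher, 3 end-joining genes lower and 2 other recombination genes lower, and with the read filter 7 other recombination genes were higher and 3 lower, with 3 end-joining genes each way. Upper-quartile scaling gave 2 end-joining genes each way and median-ratio scaling 2 lower. Leaving out libraries gave 1 to 4 higher and 0 to 1 lower for other recombination, 0 to 1 and 0 to 2 for end joining, 4 to 6 and 0 to 1 for checkpoint signalling, 6 to 15 and 1 to 2 for replication, and 3 to 6 and 1 to 2 for E2F and DREAM regulators.

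Whether the replicate numbers pair the libraries is not known. Same-numbered libraries deviated together with correlations of only 0.0524, 0.0346 and 0.0602, although each correlated best with its own number. Correlations this small do not settle the question. With the replicate block 7 of the 32 genes rose and 1 fell, beside 10.9% and 10.3% of all genes, with EXO1, TOPBP1 (adjusted p = 0.0492) and RAD51AP1 gained and RAD54L and RAD51D lost, and the block gave 1 end-joining gene and 1 E2F and DREAM gene lower. On simulated data 17 of 67 changes of 0.25 on the log2 scale were recovered, so a change of that size can go uncalled in that setting. Fewer genes were changed there than were called here, and only genes well above the 1 FPKM filter. The recovered share therefore need not hold for this set.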
